A study of Mus musculus with 16 samples.

Results

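The genes described here are 45 genes of the cell cycle, chosen as a module and found as 45 of the 22559 rows of the expression table by gene name. They comprise 15 S phase genes, 19 mitosis genes, 5 genes for D-type cyclins and their kinases, 4 genes for inhibitors of cyclin-dependent kinases (CDKs), and the pair Rb1 and E2f1. In periosteal stem cells (PSC), the CDK inhibitor genes Cdkn1a and Cdkn1c were higher than in each of the other 3 sorted populations. Against each of the periosteal progenitor populations PP1 and PP2, 8 of 15 S phase genes (53.3%) fell in PSC. Of 19 mitosis genes, 8 (42.1%) fell against PP1 and 6 (31.6%) against PP2, where 15.1% and 15.2% of all tested genes were lower in PSC. Against endosteal mesenchymal stem cells (MSC), 2 S phase genes (13.3%) and 5 mitosis genes (26.3%) fell, beside 14.2% of all tested genes. The S phase share there was thus at the background. The 45 genes were chosen with earlier results of these data known. Of 63 other mitosis genes, 17.5% were lower in PSC against PP1, 7.94% against PP2 and 17.5% against MSC, near or under the background. Of 50 other S phase genes, 22% were lower in PSC against PP1 and PP2 and 6% against MSC.

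The 4 populations were sorted by flow cytometry from femurs of postnatal day 6 C57/B6 mice of the genotype CTSK-cre+ mTMG. In these mice the cathepsin K (Ctsk) promoter drives Cre, and the reporter marks cells that have expressed Cre, and their descendants, with membrane GFP (mGFP). The groups were PSC, progenitor population type 1 (PP1), progenitor population type 2 (PP2) and MSC, which the labels call negative for mGFP and endosteal, with 4 libraries each. The labels name no treatment, all samples came from 1 litter on 1 day, and none was pooled. The labels do not say that the 4 libraries of a group came from separate animals, and a p-value here reflects only how far these particular libraries spread.

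A cell enters the cycle when D-type cyclins bind Cdk4 or Cdk6 and phosphorylate the retinoblastoma protein, which frees E2F factors to switch on S phase genes. Later, Cdk1 with cyclins A and B drives mitosis. The inhibitors p21 (Cdkn1a), p27 (Cdkn1b) and p57 (Cdkn1c) bind cyclin-CDK complexes, and p18 (Cdkn2c) binds Cdk4 and Cdk6. In the long bones of mice, p57 is known for its part in the cell cycle exit of growth plate chondrocytes.

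Values are normalized counts, that is, reads per gene divided by 1 size factor per library. Recovered reads per library were 28.5 to 32.7 M in PSC, 22.3 to 32.7 M in PP1, 24.3 to 41.2 M in PP2 and 39.5 to 48.4 M in MSC. All 45 genes were among the 13797 tested, which needed a value of at least 10 in at least 4 libraries. Of those tested, 4.49 to 8.28% were at 0 in a PSC library, 8.79 to 10.9% in PP1, 7.84 to 16.4% in PP2 and 0.428 to 0.536% in MSC. The strand setting of the counting is not given in the sources used here, and 16 of the 45 genes have exons that overlap a gene on the other strand, so reads of the overlap cannot be told apart. These are Cdkn1a, Cdkn1c, Ccnd1, Ccnd2, Ccnd3, Cdk4, Cdk6, Rb1, Mcm7, Cdc45, Ccne2, Ccna2, Plk1, Cdc20, Kif20a and Ube2c. For Cdkn1c the overlap, with Gm44732, is 625 bases of 2.039 kb of exon, and for Cdkn1a, with AC167363.2, 273 bases. All 8 defining skeletal genes, Ctsk, Prrx1, Runx2, Sp7, Pdgfra, Col1a1, Col1a2 and Twist1, had reads in every group. The summed level of 12 cartilage genes was 3.502 to 5.89 M in PSC, 1.43 to 1.79 M in PP1, 1.82 to 2.43 M in PP2 and 6.34 to 9.41 M in MSC. Of 22 haematopoietic genes, those with a read numbered 18 (PSC), 18 (PP1), 16 (PP2) and 19 (MSC); their summed level was 898 to 3493 in PSC, 2190 to 4101 in PP1, 75.6 to 2235 in PP2 and 738 to 1169 in MSC, and Ptprc, the pan-leukocyte gene, was at 0 in every PSC and PP2 library. The summed level of 12 erythroid genes was 951 to 5415 in PSC, 576 to 9877 in PP1, 335 to 4109 in PP2 and 89.0 to 1419.6 in MSC, and that of 10 endothelial genes 506 to 1304 in PSC, 820.3 to 1864 in PP1, 561 to 1369 in PP2 and 2103 to 3135 in MSC.

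The question for each pair of populations was how many of the 45 genes differed, by limma on log2(normalized count + 1) with a threshold of 0.05 on the adjusted p (differences below are in log2 units with their SE). PSC against PP1 gave 4 higher and 20 lower, where 16.1% of all tested genes were higher, 15.1% lower and 31.2% called in either direction. The lower calls were 44.4% of the 45 genes and the higher calls 8.89%. PSC against PP2 gave 4 higher and 18 lower, or 8.89% and 40%, against 17.6% and 15.2% of all tested genes (32.8% in either direction). PSC against MSC gave 2 higher and 9 lower, or 4.44% and 20%, against 12.1% and 14.2% of all tested genes (26.3% in either direction). The order of these counts depends on the fit. With only the 8 libraries compared in each fit, PSC had 20 lower genes against MSC, 18 against PP1 and 15 against PP2, of which 12, 7 and 4 were mitosis genes. The shares of all tested genes above belong to the fit of all libraries, and those of the 8-library fits are not given here.

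The median log2 difference of the 45 genes was -0.72 for PSC minus PP1, beside 0.04 over all tested genes. For PSC minus PP2 the medians were -0.47 and 0.08, and for PSC minus MSC -0.63 and -0.18. In all 3 comparisons 7 genes were lower in PSC, Mcm3, Mcm7, Mki67, Top2a, Ccnb2, Cdk1 and Ccnd2, and 2 were higher, Cdkn1a and Cdkn1c. These comparisons use the same PSC libraries, and the share of all tested genes called in all 3 is not given here. In bulk RNA, fewer cycling cells and less of these transcripts per cell cannot be told apart.

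**Figure D1:**
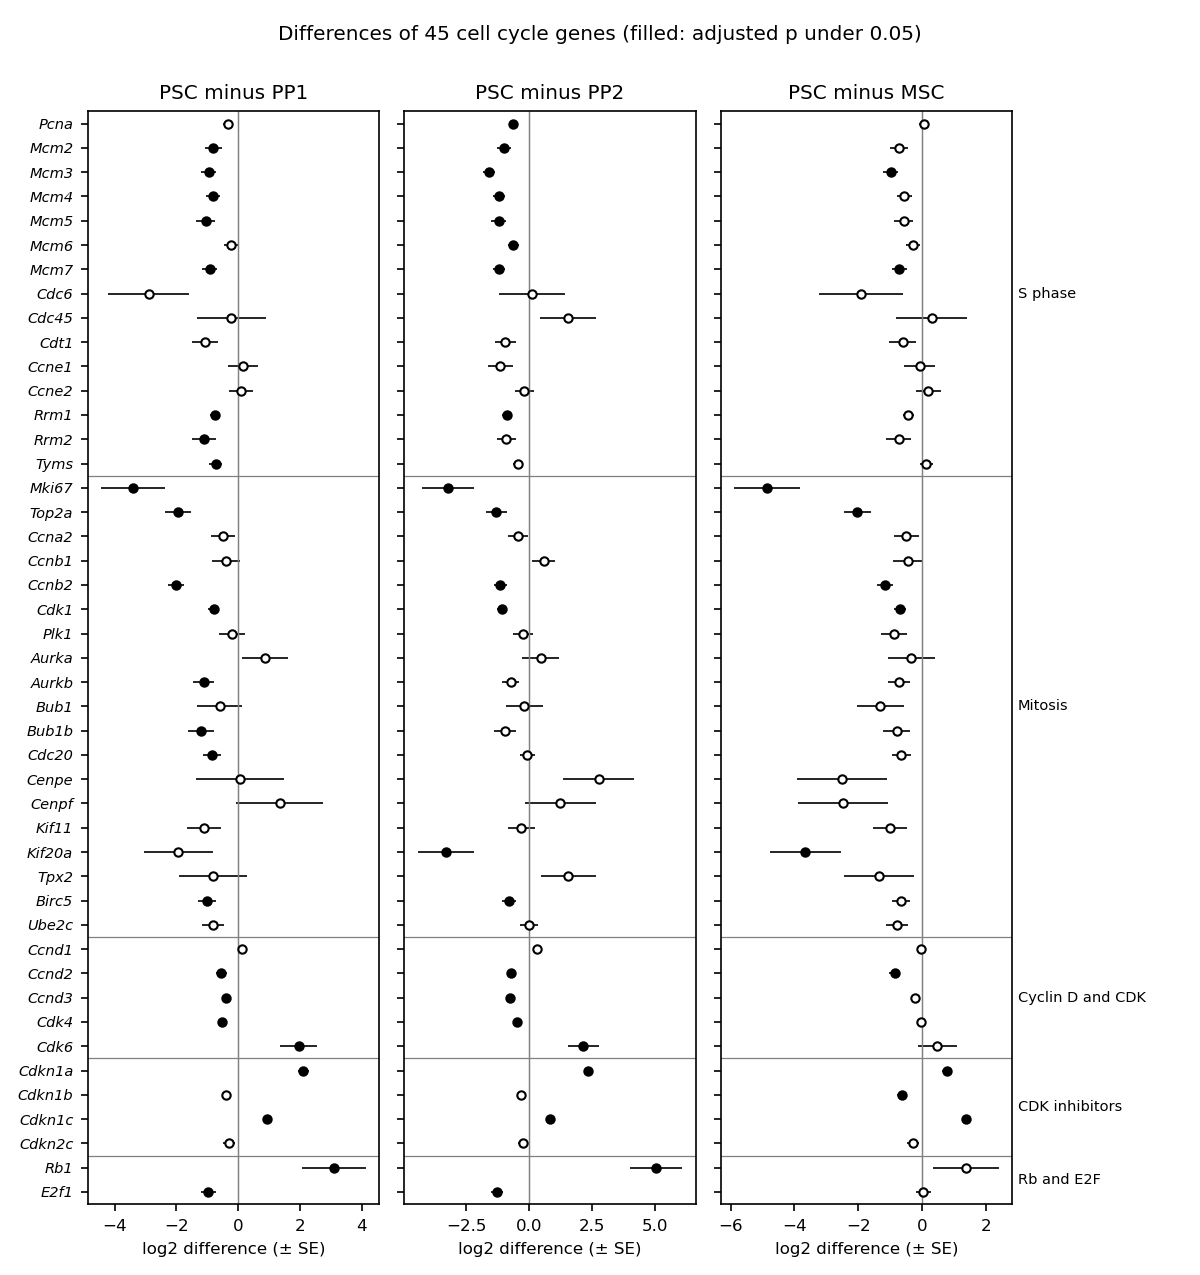
Difference of PSC minus MSC, PP1 and PP2 on the log2 scale (x axis) for each of the 45 genes (y axis, ordered by role); the colour gives the limma call and bars are SE, and the x axis spans differ between panels. Cdkn1a and Cdkn1c lie to the right of 0 in all 3 panels, and Mcm3, Mcm7, Mki67, Top2a, Ccnb2, Cdk1 and Ccnd2 to the left.

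Among the CDK inhibitors, Cdkn1a and Cdkn1c were higher in PSC, Cdkn1b was lower in PSC than in MSC, and Cdkn2c was not called in any pair. Cdkn1a had 10337, 12999, 8304 and 14638 normalized counts in PSC, 2637, 2756, 2302 and 2790.3 in PP1, 1942, 2171, 2055 and 2915 in PP2 and 6401, 7628, 5018 and 7430.1 in MSC. Every PSC library lay above every other library, and all PP1 and PP2 libraries lay below all MSC libraries. Cdkn1a (ENSMUSG00000023067, chr17:29090976-29100727, plus strand, GRCm38) encodes p21, a target of the p53 protein. Its level in PSC was 4.32-fold higher than in PP1 (2.11 ± 0.17 SE in log2, adjusted p = 1.27e-08) and, set against PP2, 5.04-fold higher (2.33 ± 0.17 SE in log2, adjusted p = 3.01e-09). Against MSC the difference was smaller, 1.73-fold higher in PSC (0.79 ± 0.17 SE in log2, adjusted p = 0.00183). PP1 was 2.5-fold lower than MSC (-1.32 ± 0.17 SE in log2, adjusted p = 1.29e-05) and PP2 2.91-fold lower (-1.54 ± 0.17 SE in log2, adjusted p = 1.82e-06).

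Cdkn1c (ENSMUSG00000037664, chr7:143458339-143461050, minus strand) encodes p57 and is expressed from the maternal allele. Cdkn1c had 97472, 109170.0, 81377 and 95129 normalized counts in PSC, 53138, 47087, 48515 and 49062 in PP1, 57697, 52781, 49447 and 52565 in PP2 and 37912, 39537, 34802 and 35334 in MSC. The 4 PSC libraries lay above all others and the 4 MSC libraries below all others, with PP1 and PP2 overlapping between them. PSC was 1.93-fold higher than PP1 (0.95 ± 0.10 SE in log2, adjusted p = 6.43e-07), 1.8-fold higher than PP2 (0.84 ± 0.10 SE in log2, adjusted p = 2.62e-06) and 2.59-fold higher than MSC (1.37 ± 0.10 SE in log2, adjusted p = 5.42e-08). PP1 and PP2 were also above MSC, 1.34-fold higher (0.42 ± 0.10 SE in log2, adjusted p = 0.00559) and 1.44-fold higher (0.53 ± 0.10 SE in log2, adjusted p = 0.000886). The order of Cdkn1c, with MSC lowest, differed from that of the summed cartilage genes, with MSC highest, while Cdkn1a and the cartilage genes were both lowest in PP1 and PP2; the part of chondrocytes in either result was not tested.

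Cdkn1b had 1143, 986, 1088 and 928 normalized counts in PSC, 1431, 1211, 1419.8 and 1342 in PP1, 921, 1519, 1339 and 1509 in PP2 and 1885, 1346, 1665 and 1528 in MSC. No PSC library reached the lowest MSC library. Cdkn1b, the gene for p27, in PSC was 1.54-fold lower than in MSC (-0.63 ± 0.16 SE in log2, adjusted p = 0.00578); against PP1 and PP2 the adjusted p was 0.0685 and 0.117. Cdkn2c had 1241, 1001, 1508 and 1206 normalized counts in PSC, 1237, 1916, 1321 and 1667 in PP1, 992, 1596, 1404 and 1951 in PP2 and 1425, 1319.7, 1476 and 1729 in MSC. All 4 groups overlapped for Cdkn2c, the gene for p18, and the test over the 4 groups gave an adjusted p of 0.468.

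Per kb of exon, Cdkn1c was the most abundant of the 4 inhibitor genes in every group. Its mean level was 46977 normalized counts per kb (PSC), 24252 (PP1), 26053 (PP2) and 18095 (MSC). Cdkn1a came second, with a mean level of 3256 per kb (PSC), 738 (PP1), 639 (PP2) and 1863 (MSC). Cdkn2c and Cdkn1b had mean levels of 461 and 228 per kb in PSC, the lowest of each gene over the 4 groups.

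**Figure D2:**
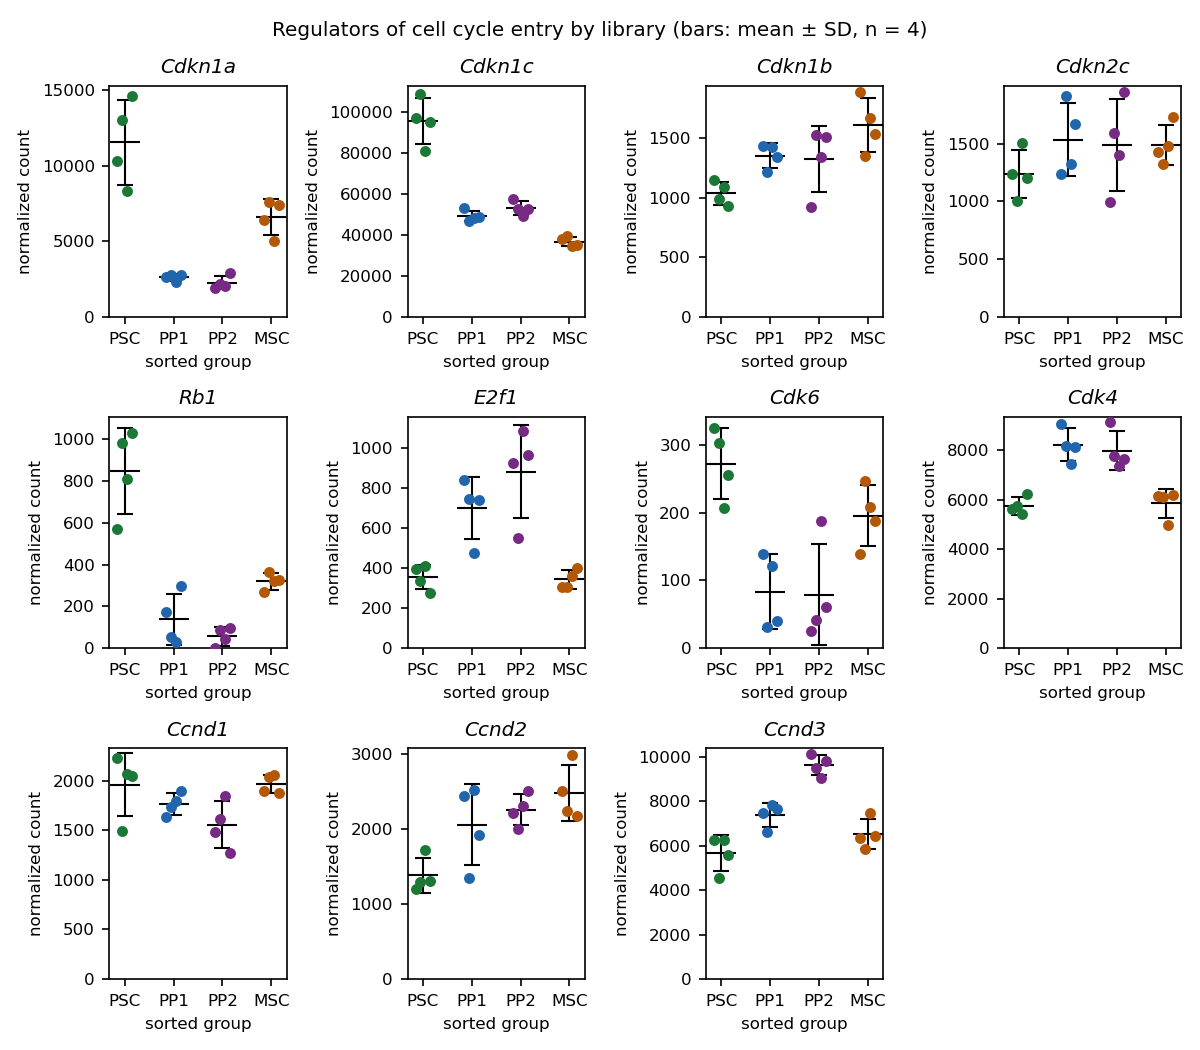
Normalized counts (y axis) of 11 regulator genes in each library, with groups on the x axis in the order PSC, PP1, PP2 and MSC; bars show the mean and SD of 4 libraries. For Cdkn1a the PSC libraries span 8304 to 14638 and the PP1 and PP2 libraries 1942 to 2915.

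The promoter of Cdkn1a is shown because this gene had the smallest adjusted p of the 45 in PSC against both PP1 and PP2, and because p53 binds DNA at repeated half-sites. The window is the 250 bases before the start site, on the gene's strand, from RefSeq (GRCm38.p6, chr17:29090729-29090978, plus strand). Capitals mark the 2 matches to the p53 half-site, which was added to the search after the values were seen; a second Cdkn1a window had none.
Cdkn1a: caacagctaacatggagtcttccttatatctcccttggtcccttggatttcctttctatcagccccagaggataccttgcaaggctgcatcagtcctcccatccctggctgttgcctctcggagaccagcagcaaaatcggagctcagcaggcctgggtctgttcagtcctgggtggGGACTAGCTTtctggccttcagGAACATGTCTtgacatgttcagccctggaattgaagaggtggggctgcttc
Of 27025 genes with such a window, 8.20% held at least 1 half-site on either strand and 0.281% (76 genes) held 2 or more in 1 window. A match is a run of letters and not a measured site. The p53 gene Trp53 and genes known as p53 targets, Cdkn1a apart, made a list of 20. Of these, PSC had 5 higher and 4 lower against PP1, 7 higher and 4 lower against PP2, and 2 higher and 1 lower against MSC; Trp53 itself was among the lower genes each time. The higher genes were 25%, 35% and 10% of the list, beside 16.1%, 17.6% and 12.1% of all tested genes, and the lower genes 20%, 20% and 5%, beside 15.1%, 15.2% and 14.2%. Ccng1, encoding cyclin G1, averaged 4737 ± 535 (PSC), 1519 ± 370.2 (PP1), 1699 ± 155 (PP2) and 1758 ± 149.8 (MSC) (SD, n = 4 each), with an adjusted p of 3.84e-08 against PP1 and 1.53e-06 against MSC. Mdm2, the p53 ubiquitin ligase, averaged 1386 ± 200.3 (PSC), 546 ± 164 (PP1), 686 ± 168 (PP2) and 872 ± 123 (MSC), and rose in PSC against all 3 groups (adjusted p 6.41e-05 against PP1, 0.00101 against PP2 and 0.0288 against MSC). Other listed genes ran the opposite way. Phlda3, an Akt repressor, averaged 876 ± 278 (PSC), 3371 ± 454 (PP1), 3216 ± 458 (PP2) and 1202 ± 188 (MSC), and fell in PSC against PP1 and PP2 (adjusted p 1.61e-07 and 2.52e-07). Fas, the death receptor gene, averaged 90.7 ± 23.3 (PSC), 285 ± 83.9 (PP1), 245 ± 100.20 (PP2) and 105 ± 19.8 (MSC) and fell likewise (adjusted p 0.00446 and 0.0139). Perp averaged 597 ± 164 (PSC), 164 ± 66.6 (PP1), 72.8 ± 79.7 (PP2) and 787 ± 173 (MSC), and rose in PSC against PP2 (adjusted p 0.00163), with an adjusted p of 0.174 against PP1 and 0.819 against MSC. Sesn2, a stress-response gene, averaged 403 ± 162 (PSC), 197 ± 109 (PP1), 230.3 ± 72.2 (PP2) and 590.5 ± 44.98 (MSC), and rose in PSC against PP1 (adjusted p 0.0239).

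The genes of cyclin D and its kinases moved in different directions: Ccnd2 was lower in PSC than in all 3 other groups, Ccnd3 and Cdk4 were lower than in PP1 and PP2, and Cdk6 was higher than in PP1 and PP2. Ccnd2 had 1207, 1295, 1724 and 1307 normalized counts in PSC, 2440.0, 1349, 2528 and 1926 in PP1, 2220.1, 2009, 2305 and 2508 in PP2 and 2516, 2244, 2992 and 2178 in MSC. PSC and PP1 overlapped through PP1 replicate 2, while PSC lay below all PP2 and MSC libraries. Ccnd2, for cyclin D2, in PSC was 1.8-fold lower than in MSC (-0.85 ± 0.17 SE in log2, adjusted p = 0.00135) and 1.64-fold lower than in PP2 (-0.72 ± 0.17 SE in log2, adjusted p = 0.00314). Against PP1 it was 1.46-fold lower (-0.55 ± 0.17 SE in log2, adjusted p = 0.0208), a call lost without PSC replicate 1, 2 or 4 or PP1 replicate 1 or 3 (adjusted p 0.0509 to 0.0783).

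Ccnd3 had 6247, 4541, 6264 and 5607 normalized counts in PSC, 7488, 6615, 7838 and 7639.7 in PP1, 10126, 9525, 9067 and 9827 in PP2 and 6367, 5867, 7482 and 6433 in MSC. PP2 was highest without overlap, and PSC lay below PP1. For Ccnd3, which encodes cyclin D3, PSC was 1.31-fold lower than PP1 (-0.39 ± 0.11 SE in log2, adjusted p = 0.00732) and 1.71-fold lower than PP2 (-0.78 ± 0.11 SE in log2, adjusted p = 1.05e-05), and PP2 was 1.48-fold higher than MSC (0.56 ± 0.11 SE in log2, adjusted p = 0.000646). Ccnd1 had 2229.7, 1494, 2062 and 2045 normalized counts in PSC, 1632, 1733, 1792 and 1889.6 in PP1, 1485, 1617, 1846 and 1274 in PP2 and 1898, 2037, 2056 and 1875 in MSC. Ccnd1, for cyclin D1, was not called in any pair, and its PSC libraries overlapped those of all other groups. The exons of Ccnd1 overlap 1100 bases of LTO1, and those of Cdk4 641 bases of Tspan31.

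Cdk4 had 5643, 5733, 5409 and 6254 normalized counts in PSC, 9085, 8186, 7466 and 8148 in PP1, 9142, 7756, 7366 and 7670.3 in PP2 and 6157, 6109, 4979 and 6188 in MSC. The PP1 and PP2 libraries all lay above all PSC and MSC libraries. Cdk4 in PSC was 1.43-fold lower than in PP1 (-0.51 ± 0.10 SE in log2, adjusted p = 0.000409) and 1.38-fold lower than in PP2 (-0.47 ± 0.10 SE in log2, adjusted p = 0.000895), and against MSC the adjusted p was 0.909. PP1 and PP2 were 1.41-fold higher (0.49 ± 0.10 SE in log2, adjusted p = 0.00114) and 1.36-fold higher (0.45 ± 0.10 SE in log2, adjusted p = 0.00225) than MSC. Cdk6 had 325, 303, 206 and 256 normalized counts in PSC, 139, 31.2, 121 and 40.6 in PP1, 25.3, 41.6, 188 and 60.2 in PP2 and 139, 246, 209 and 187 in MSC. Every PSC library lay above every PP1 and PP2 library, and PSC overlapped MSC. Cdk6, the other cyclin D kinase, in PSC was 3.89-fold higher than in PP1 (1.96 ± 0.60 SE in log2, adjusted p = 0.0183), a call lost without PP1 replicate 2 or 4 (adjusted p 0.0524 to 0.0587), and 4.49-fold higher than in PP2 (2.166 ± 0.60 SE in log2, adjusted p = 0.00935). PP2 against MSC had an adjusted p of 0.049999 for Cdk6, just within the threshold, and this call was lost in 19 of 27 alternatives, DESeq2 and edgeR included.

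Rb1 and E2f1 moved in opposite directions between PSC and the progenitors. Rb1 had 570.3, 979.6, 809.5 and 1028 normalized counts in PSC, 171, 55.1, 29.6 and 297 in PP1, 0, 87.8, 42.4 and 95.3 in PP2 and 268, 363, 320.2 and 326 in MSC. Rb1 (ENSMUSG00000022105, chr14:73183673-73325822, minus strand), for the retinoblastoma protein, had all PSC libraries above all others, PP1 ranging widely and PP2 lowest with 1 library at 0. Its mean was 847 ± 207 (PSC), 138 ± 122 (PP1), 56.4 ± 44.2 (PP2) and 319 ± 39.04 (MSC) (SD, n = 4 each). PSC was higher than PP2 (5.07 ± 1.04 SE in log2, adjusted p = 0.000840) and than PP1 (3.09 ± 1.04 SE in log2, adjusted p = 0.0291), the second call being lost without PSC replicate 2, 3 or 4 or PP1 replicate 2 or 3 (adjusted p 0.0539 to 0.0959) and with a pseudocount of 0.5 (adjusted p 0.0526). Against MSC the adjusted p was 0.372, although the PSC and MSC libraries did not overlap; with only those 8 libraries in the fit Rb1 was called. PP2 was lower than MSC (-3.69 ± 1.04 SE in log2, adjusted p = 0.0142), a call lost with only those 8 libraries in the fit or without PP2 replicates 1 and 3 together. Log2 differences of Rb1 depend on the pseudocount, and its exons overlap 488 bases of Rcbtb2 and 408 of Lpar6 on the other strand.

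E2f1 had 396, 338, 413 and 278 normalized counts in PSC, 841, 748, 477 and 739.6 in PP1, 925, 551, 1089.6 and 967 in PP2 and 307, 307, 359.6 and 402 in MSC. The PP1 and PP2 libraries all lay above all PSC and MSC libraries. E2f1, an activator of S phase genes, in PSC was 1.95-fold lower than in PP1 (-0.96 ± 0.24 SE in log2, adjusted p = 0.00427) and 2.43-fold lower than in PP2 (-1.28 ± 0.24 SE in log2, adjusted p = 0.000344). PP1 was 2.01-fold higher than MSC (1.004 ± 0.24 SE in log2, adjusted p = 0.00519) and PP2 2.5-fold higher (1.32 ± 0.24 SE in log2, adjusted p = 0.000487), while PSC against MSC had an adjusted p of 0.925.

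The 15 S phase genes were lowest in PSC by group mean in 10 cases and highest in none, whereas PP2 was highest in 10 and PP1 in 5. How many of all tested genes were lowest in PSC is not given here. Against PP1, 8 of 15 fell in PSC and none rose, with a median log2 difference of -0.81. Against PP2 it was also 8 of 15, with a median of -0.91, and against MSC 2 of 15, with a median of -0.55. In the same order, the medians over all tested genes were 0.04, 0.08 and -0.18, and 15.1%, 15.2% and 14.2% were lower in PSC. The summed level of the S phase genes was 5314 to 6603 in PSC, 7963 to 10754 in PP1, 8983 to 13790.1 in PP2 and 7103 to 8389 in MSC. The PSC sums thus lay below those of the other groups without overlap.

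The promoters of Mcm7 and Mcm5 are shown because E2F binds before S phase genes. Both genes fell in PSC against both progenitor groups and held a match to the E2F motif. E2F was searched as TTTNNCGC or GCGNNAAA, which are the 2 strands of 1 motif, in 250 bases before the start site. Of the 45 genes, 35 had a RefSeq window (39 windows). The E2F motif was found in 4 of 13 S phase genes with a window (Mcm5, Mcm6, Mcm7 and Cdc6) and 1 of 15 mitosis genes (Cdk1). It was also found in 1 of 3 cyclin D and CDK genes (Cdk6), beside 4.94% of the 27025 genes. Mcm2, Mcm3 and Rrm1 also fell against both progenitor groups, but their windows held no E2F match. Another Mcm7 window held none either. Capitals mark the match in Mcm7 (chr5:138171884-138172133, minus strand) and the 2 overlapping matches, 1 per strand, in Mcm5 (chr8:75109259-75109508, plus strand).
Mcm7: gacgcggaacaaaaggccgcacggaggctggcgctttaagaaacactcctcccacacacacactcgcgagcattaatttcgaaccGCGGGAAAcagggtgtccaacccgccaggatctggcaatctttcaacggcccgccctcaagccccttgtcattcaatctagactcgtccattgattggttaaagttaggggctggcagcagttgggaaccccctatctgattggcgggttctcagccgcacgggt
Mcm5: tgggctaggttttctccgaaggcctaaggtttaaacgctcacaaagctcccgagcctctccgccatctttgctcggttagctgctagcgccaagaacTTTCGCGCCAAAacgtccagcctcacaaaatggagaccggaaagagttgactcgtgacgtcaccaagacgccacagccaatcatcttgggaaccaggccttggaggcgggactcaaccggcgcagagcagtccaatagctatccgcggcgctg

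Within the replicative helicase, subunits Mcm2 to Mcm7 were all lower in PSC than in PP2 (6 of 6), and all but Mcm6 were lower than in PP1. Mcm3 had 225, 298, 297 and 354 normalized counts in PSC, 599.7, 555, 603 and 504 in PP1, 1213, 545, 848 and 1092 in PP2 and 546, 497, 641 and 613 in MSC. No PSC library reached the lowest library of any other group. For Mcm3 PSC was 1.94-fold lower than PP1 (-0.96 ± 0.23 SE in log2, adjusted p = 0.00318), 3.05-fold lower than PP2 (-1.61 ± 0.23 SE in log2, adjusted p = 1.90e-05) and 1.97-fold lower than MSC (-0.98 ± 0.23 SE in log2, adjusted p = 0.00385). Mcm7 had 646, 438, 715 and 488 normalized counts in PSC, 1155, 950.2, 1002 and 1171 in PP1, 2290.5, 1084, 822 and 1333 in PP2 and 844, 849.7, 943 and 1044 in MSC. PSC again lay below all other libraries, and PP2 replicate 1 was highest. Mcm7 in PSC was 1.9-fold lower than in PP1 (-0.92 ± 0.24 SE in log2, adjusted p = 0.00532) and 2.29-fold lower than in PP2 (-1.19 ± 0.24 SE in log2, adjusted p = 0.000618). Against MSC it was 1.63-fold lower (-0.71 ± 0.24 SE in log2, adjusted p = 0.0333), a call lost with edgeR and TMM factors (adjusted p 0.0609) and without PSC replicate 2 or 4 or MSC replicate 3 or 4 (adjusted p 0.0739 to 0.107).

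Mcm4 had 215, 239, 338 and 279.9 normalized counts in PSC, 460.4, 355, 495 and 584 in PP1, 773, 679.7, 439 and 580.0 in PP2 and 362, 388, 441 and 363 in MSC. Mcm2 had 277, 267, 315 and 352 normalized counts in PSC, 677, 384, 376 and 786 in PP1, 600.1, 378, 688 and 845 in PP2 and 511, 478, 469 and 526 in MSC. For both genes PSC lay below every library of the other groups. Mcm4 fell in PSC against PP1 (-0.82 ± 0.24 SE in log2, adjusted p = 0.0123) and PP2 (-1.19 ± 0.24 SE in log2, adjusted p = 0.000609), with an adjusted p of 0.0958 against MSC. Mcm2 fell against PP2 (-1.001 ± 0.27 SE in log2, adjusted p = 0.00757), a call lost without PP2 replicates 1 and 3 together (adjusted p 0.0564). Against PP1 Mcm2 also fell (-0.81 ± 0.27 SE in log2, adjusted p = 0.0290), a call lost without PSC replicate 1 or 2 or PP1 replicate 1 or 4 (adjusted p 0.0644 to 0.106) and with only those 8 libraries in the fit (adjusted p 0.0522); against MSC the adjusted p was 0.0572. Mcm6 had 702, 402, 621 and 819.9 normalized counts in PSC, 768, 701, 664 and 752 in PP1, 1467, 743, 851 and 908 in PP2 and 686, 688, 831 and 821 in MSC. PSC overlapped every other group for Mcm6, which was lower in PSC than in PP2 (-0.64 ± 0.22 SE in log2, adjusted p = 0.0316), a call lost without PSC replicate 2 or 3 or PP2 replicate 1 (adjusted p 0.0533 to 0.133), with only those 8 libraries in the fit (adjusted p 0.0908) and without PP2 replicates 1 and 3 together (adjusted p 0.214).

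Mcm5 averaged 309.6 ± 69.2 (PSC), 653 ± 173 (PP1), 763 ± 349 (PP2) and 458 ± 92.1 (MSC), and fell in PSC against PP1 (adjusted p 0.0114) and PP2 (adjusted p 0.00414, lost without PP2 replicates 1 and 3 together, adjusted p 0.0554). Pcna had 1286, 1455, 1260.0 and 1509 normalized counts in PSC, 1677, 1675, 1454 and 2196 in PP1, 2628, 1859, 1807 and 2424 in PP2 and 1334, 1405, 1032 and 1501 in MSC. Pcna, the sliding clamp of DNA polymerases, was highest in PP2, whose libraries lay above those of PSC and MSC. PSC was 1.57-fold lower than PP2 (-0.65 ± 0.16 SE in log2, adjusted p = 0.00332), and PP2 was 1.65-fold higher than MSC (0.72 ± 0.16 SE in log2, adjusted p = 0.00233). PSC against MSC, whose libraries overlapped, had an adjusted p of 0.790.

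Genes of nucleotide supply were also lower in PSC than in PP1. Rrm1 had 726, 772, 835 and 935 normalized counts in PSC, 1525, 1476, 1017 and 1560.4 in PP1, 1638, 1385, 1213 and 1938 in PP2 and 1076, 1088, 994 and 1214 in MSC. For Rrm1, the large subunit of ribonucleotide reductase, PSC lay below all other libraries. It was 1.69-fold lower than PP1 (-0.76 ± 0.16 SE in log2, adjusted p = 0.00142) and 1.87-fold lower than PP2 (-0.90 ± 0.16 SE in log2, adjusted p = 0.000267), with an adjusted p of 0.0653 against MSC. PP2 was 1.39-fold higher than MSC (0.48 ± 0.16 SE in log2, adjusted p = 0.0400), a call lost without PP2 replicate 1 or 4 or MSC replicate 1, 2 or 3 (adjusted p 0.0811 to 0.129). Rrm2 had 215, 288, 398 and 456 normalized counts in PSC, 849, 741, 429.9 and 892 in PP1, 916, 609, 220.0 and 1141 in PP2 and 559.5, 474, 489.7 and 651 in MSC. PP2 overlapped all other groups for Rrm2, the small subunit, and PSC overlapped PP1 through PP1 replicate 3. Rrm2 fell in PSC against PP1 (-1.10 ± 0.39 SE in log2, adjusted p = 0.0377), a call lost with no filter (adjusted p 0.052) and without PSC replicate 1 or 2 or PP1 replicate 1, 2 or 4 (adjusted p 0.0728 to 0.119). Tyms, for thymidylate synthase, averaged 386 ± 67.8 (PSC), 633 ± 75.1 (PP1), 521 ± 80.6 (PP2) and 349 ± 50.6 (MSC); it fell in PSC against PP1 (adjusted p 0.0120) and was higher in PP1 than in MSC (adjusted p 0.00574).

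The licensing and firing genes Cdc6, Cdc45 and Cdt1 and the cyclin E genes Ccne1 and Ccne2 were not called in any pair. Cdc6 was low, with a mean of 11.4 ± 10.4 (PSC), 66.9 ± 56.8 (PP1), 24.01 ± 29.9 (PP2) and 27.4 ± 7.60 (MSC), and was at 0 in 3 libraries. Cdt1 averaged 198 ± 113 (PSC), 381 ± 115 (PP1), 359 ± 142 (PP2) and 262 ± 34.9 (MSC). Cdc45 averaged 110.3 ± 41.01 (PSC), 131 ± 49.9 (PP1), 102 ± 100.13 (PP2) and 85.6 ± 14.1 (MSC). Ccne1 was highest in PP2, at 268 ± 56.6, beside 138 ± 73.7 (PSC), 115 ± 47.01 (PP1) and 125 ± 13.7 (MSC), with an adjusted p of 0.0785 for PSC against PP2. Ccne2 averaged 166 ± 29.1 (PSC), 159 ± 48.96 (PP1), 198 ± 70.8 (PP2) and 145 ± 35.8 (MSC). Over the 4 groups the adjusted p was 0.495 for Cdc45 and 0.814 for Ccne2.

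The 19 mitosis genes were lowest in PSC by group mean in 14 cases and highest in none, while PP1 was highest in 9 and MSC in 8. The same count over all tested genes is not given here. All 19 had a negative log2 difference in PSC minus MSC, of which 5 passed the test, and the median was -0.88. In PSC minus PP1, 16 were negative and 8 passed, with a median of -0.82. In PSC minus PP2, 13 were negative and 6 passed, with a median of -0.31. In the same order, the medians over all tested genes were -0.18, 0.04 and 0.08, and 14.2%, 15.1% and 15.2% were lower in PSC. These medians are not matched for level. Of the tested genes, 4.49 to 8.28% were at 0 in a PSC library and 0.428 to 0.536% in an MSC library. The part of this in the differences from MSC was not tested. The summed level of the mitosis genes was 3374 to 4927 in PSC, 5389 to 9616 in PP1, 4605 to 8082 in PP2 and 6439 to 8370 in MSC. PSC thus overlapped PP2 through PSC replicate 1 and PP2 replicate 1. The summed haematopoietic level of PSC, 898 to 3493, overlapped that of PP1 (2190 to 4101) and of PP2 (75.6 to 2235) and reached above that of MSC (738 to 1169); the part of such cells in these results was not tested.

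The promoters of Ccnb2, Cdk1, Mki67 and Top2a are shown because these 4 genes fell in PSC against all 3 other groups. Mitosis genes of mammals are known to carry CCAAT boxes and a downstream element called CHR. CHR was searched as TTTGAA or TTCAAA and the CCAAT box as CCAAT or ATTGG, each pair being the 2 strands of 1 motif, and no match overlapped one of another motif. CHR was found in 7 of 15 mitosis genes with a window (46.7%) and 2 of 13 S phase genes (15.4%), against 18.3% of the 27025 genes. CCAAT was found in 14 of 15 mitosis genes (93.3%) and 9 of 13 S phase genes (69.2%), against 37.5% of the 27025 genes. Capitals mark CHR and CCAAT matches in the windows of Ccnb2 (chr9:70421555-70421804, minus strand), Cdk1 (chr10:69352913-69353162, minus strand), Mki67 (chr7:135716380-135716629, minus strand) and Top2a (chr11:99024190-99024439, minus strand).
Ccnb2: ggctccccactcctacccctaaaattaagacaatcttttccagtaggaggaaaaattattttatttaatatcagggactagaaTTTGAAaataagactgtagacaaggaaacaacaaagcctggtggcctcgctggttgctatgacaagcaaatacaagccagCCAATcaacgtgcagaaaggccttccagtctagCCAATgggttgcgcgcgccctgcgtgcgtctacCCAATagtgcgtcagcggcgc
Cdk1: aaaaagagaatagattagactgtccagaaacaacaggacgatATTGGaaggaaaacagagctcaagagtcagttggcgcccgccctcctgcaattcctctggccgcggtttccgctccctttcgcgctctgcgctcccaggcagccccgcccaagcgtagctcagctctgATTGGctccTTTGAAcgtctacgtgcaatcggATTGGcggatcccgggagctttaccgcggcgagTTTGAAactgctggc
Mki67: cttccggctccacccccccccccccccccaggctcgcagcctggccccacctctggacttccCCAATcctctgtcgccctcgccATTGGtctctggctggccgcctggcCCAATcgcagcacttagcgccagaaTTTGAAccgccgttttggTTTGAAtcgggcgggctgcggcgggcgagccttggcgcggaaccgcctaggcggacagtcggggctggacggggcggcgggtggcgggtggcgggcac
Top2a: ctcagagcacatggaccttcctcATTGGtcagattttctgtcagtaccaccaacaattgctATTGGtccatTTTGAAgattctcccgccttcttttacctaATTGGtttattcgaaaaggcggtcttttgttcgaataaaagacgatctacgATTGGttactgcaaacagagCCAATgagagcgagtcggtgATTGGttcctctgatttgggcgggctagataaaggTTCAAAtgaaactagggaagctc
Each of the 4 held both motifs, as did Ube2c, Cdc20 and Kif11 among the mitosis genes. In Ccnb2 the 1 CHR match lies upstream of all 3 CCAAT matches, and not downstream as in the known arrangement.

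Ccnb2 had 339, 199, 223 and 224 normalized counts in PSC, 1191, 961, 750.3 and 1077 in PP1, 677, 425, 371 and 779.7 in PP2 and 517, 479, 473 and 720.4 in MSC. Every PSC library lay below every other library, and PP1 lay above MSC without overlap. For Ccnb2 (ENSMUSG00000032218, chr9:70407692-70421547, minus strand), the gene of cyclin B2, PSC was 4.05-fold lower than PP1 (-2.02 ± 0.26 SE in log2, adjusted p = 5.97e-06), 2.22-fold lower than PP2 (-1.15 ± 0.26 SE in log2, adjusted p = 0.00184) and 2.23-fold lower than MSC (-1.16 ± 0.26 SE in log2, adjusted p = 0.00271). PP1 was 1.82-fold higher than MSC (0.86 ± 0.26 SE in log2, adjusted p = 0.0223), a call lost without PP1 replicate 1 or 4 or MSC replicate 1, 2 or 3 (adjusted p 0.0554 to 0.0683). Cdk1 had 829, 472, 535 and 686 normalized counts in PSC, 1247, 942, 918 and 1207 in PP1, 1143, 1359, 1243 and 1498 in PP2 and 1001, 920.2, 875 and 1195 in MSC. PSC lay below all other libraries here too. Cdk1, the kinase that cyclin B activates, in PSC was 1.73-fold lower than in PP1 (-0.79 ± 0.18 SE in log2, adjusted p = 0.00202), 2.12-fold lower than in PP2 (-1.08 ± 0.18 SE in log2, adjusted p = 0.000103) and 1.61-fold lower than in MSC (-0.69 ± 0.18 SE in log2, adjusted p = 0.00824).

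Mki67 had 53.6, 9.05, 0 and 18.6 normalized counts in PSC, 338, 86.3, 17.7 and 239.5 in PP1, 38.5, 89.98, 228 and 99.5 in PP2 and 411, 236, 266 and 287 in MSC. Mki67 (ENSMUSG00000031004, chr7:135689784-135716361, minus strand), the gene of the proliferation antigen Ki-67, was below all MSC libraries in PSC, while PP1 and PP2 ranged widely and overlapped PSC. It fell in PSC against MSC (-4.85 ± 1.04 SE in log2, adjusted p = 0.00195), and against PP1 (-3.40 ± 1.04 SE in log2, adjusted p = 0.0171) and PP2 (-3.23 ± 1.04 SE in log2, adjusted p = 0.0220). The call against PP1 was lost without PSC replicate 3 or PP1 replicate 1 or 4 (adjusted p 0.0547 to 0.0616) and with only those 8 libraries in the fit (adjusted p 0.0549). That against PP2 was lost without PSC replicate 3 or PP2 replicate 3 (adjusted p 0.0630 to 0.0785), with only those 8 libraries in the fit (adjusted p 0.0621) and without PP2 replicates 1 and 3 together (adjusted p 0.0682). In Mki67 1 PSC library was at 0, so these differences depend on the pseudocount. Top2a had 157, 84.5, 78.4 and 74.3 normalized counts in PSC, 428, 353, 216 and 525 in PP1, 92.3, 368, 306 and 296 in PP2 and 411, 343, 433 and 356 in MSC. Top2a, for the topoisomerase that untangles replicated chromosomes, had PSC below all PP1 and MSC libraries, with an overlap with PP2 replicate 1. Its level in PSC was 3.83-fold lower than in PP1 (-1.94 ± 0.42 SE in log2, adjusted p = 0.00138) and 4.06-fold lower than in MSC (-2.02 ± 0.42 SE in log2, adjusted p = 0.00152). Against PP2 it was 2.5-fold lower (-1.32 ± 0.42 SE in log2, adjusted p = 0.0203), a call lost without PSC replicate 4 or PP2 replicate 2 or 4 (adjusted p 0.0538 to 0.0675) and with only those 8 libraries in the fit (adjusted p 0.0835).

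Cdc20 and Ube2c work with the anaphase-promoting complex, which ends mitosis. Cdc20 had 624, 464, 485 and 631 normalized counts in PSC, 1290.2, 953, 700.0 and 1042 in PP1, 617, 725, 265 and 918 in PP2 and 837, 828, 704 and 1093 in MSC. Cdc20, its co-activator, had PSC below PP1 and MSC without overlap. PSC was 1.78-fold lower than PP1 (-0.83 ± 0.29 SE in log2, adjusted p = 0.0357), a call lost without PSC replicate 2 or 3 or PP1 replicate 1, 2 or 4 (adjusted p 0.0601 to 0.107), and against MSC the adjusted p was 0.114. Ube2c had 321, 302, 446 and 359 normalized counts in PSC, 522, 597, 472 and 1032 in PP1, 249, 483, 176 and 720.4 in PP2 and 569.8, 580.2, 486 and 839.5 in MSC. Ube2c, the E2 enzyme of that complex, also had PSC below PP1 and MSC without overlap, but was not called in any pair, with an adjusted p of 0.0905 against PP1 and 0.121 against MSC.

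**Figure D3:**
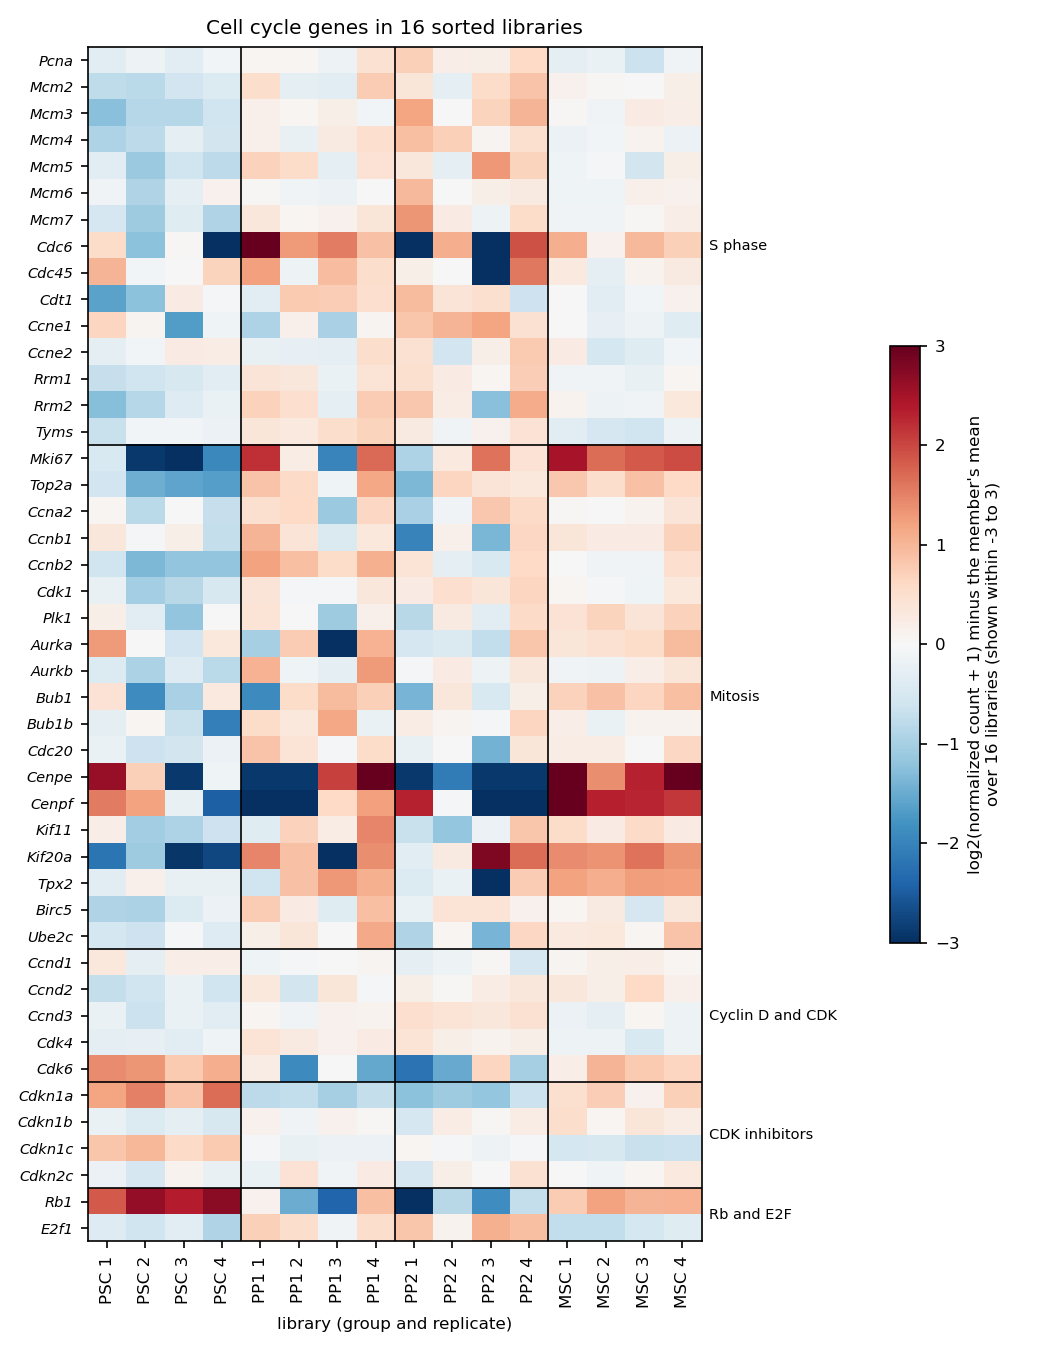
Level of each of the 45 genes (rows, by role) in each library (columns, PSC, PP1, PP2 and MSC), as the log2(normalized count + 1) minus the gene's mean over 16 libraries. Most S phase and mitosis rows are below their mean in PSC, and Cdkn1a and Cdkn1c are above it.

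Among the kinase, checkpoint and chromosome segregation genes, Birc5, for survivin, averaged 312 ± 83.2 (PSC), 647 ± 231 (PP1), 538 ± 102 (PP2) and 489 ± 116 (MSC). It fell in PSC against PP1 (adjusted p 0.0111) and PP2 (adjusted p 0.0384, lost without PSC replicate 1 or 2 or PP2 replicate 2, 3 or 4 (adjusted p 0.0584 to 0.112) and without PP2 replicates 1 and 3 together (adjusted p 0.0737)). Aurkb, the kinase that acts with survivin, averaged 192 ± 36.7 (PSC), 461 ± 239 (PP1), 318 ± 51.7 (PP2) and 316 ± 56.2 (MSC) and fell against PP1 (adjusted p 0.0154), a call lost without PP1 replicate 1 or 4 (adjusted p 0.0552 to 0.0648). Bub1b, a spindle checkpoint gene, averaged 140.0 ± 70.2 (PSC), 299 ± 117 (PP1), 244 ± 53.9 (PP2) and 214 ± 23.5 (MSC) and fell against PP1 (adjusted p 0.0374), a call lost with edgeR and TMM factors (adjusted p 0.0506), with only those 8 libraries in the fit (adjusted p 0.0833) and without PSC replicate 3 or 4 or PP1 replicate 1, 2 or 3 (adjusted p 0.0527 to 0.140). Kif20a, a kinesin of cytokinesis, averaged 13.9 ± 9.77 (PSC), 110.1 ± 76.95 (PP1), 183 ± 171 (PP2) and 164 ± 16.9 (MSC). It fell in PSC against MSC (adjusted p 0.0202, lost without PSC replicate 4 or MSC replicate 3 (adjusted p 0.0515 to 0.0524)) and against PP2 (adjusted p 0.0276, lost without PSC replicate 1, 3 or 4 or PP2 replicate 3 or 4 (adjusted p 0.0511 to 0.0843) and without PP2 replicates 1 and 3 together (adjusted p 0.0904)), and its exons overlap 1271 bases of Cdc23 on the other strand.

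Cenpe, a kinetochore motor, was lower in PP2 than in MSC (-5.27 ± 1.42 SE in log2, adjusted p = 0.0105). It had 1 read in all 4 PP2 libraries together, against a mean of 50.1 ± 27.9 normalized counts in MSC, and was at 0 in 6 of the 16 libraries. The call was lost without PP2 replicates 1 and 3 together (adjusted p 0.0590), and genes at 0 were more common in PP2 libraries than in MSC libraries overall. The other 9 mitosis genes, Ccna2, Ccnb1, Plk1, Aurka, Bub1, Cenpf, Kif11, Tpx2 and Ube2c (above), were not called in any pair. Tpx2, a spindle assembly factor, averaged 116 ± 17.97 (PSC), 228 ± 101 (PP1), 106 ± 88.6 (PP2) and 295 ± 14.4 (MSC). Plk1, a mitotic kinase, averaged 179 ± 64.4 (PSC), 207 ± 76.6 (PP1), 215 ± 88.5 (PP2) and 311 ± 34.8 (MSC). For both genes the 4 MSC libraries lay above the 4 PSC libraries, at adjusted p 0.415 and 0.129. Ccna2, for cyclin A2, averaged 421 ± 130.2 (PSC), 636 ± 268 (PP1), 609 ± 289.8 (PP2) and 573 ± 71.96 (MSC), and Ccnb1, for cyclin B1, 382 ± 110.1 (PSC), 514 ± 205 (PP1), 316 ± 234 (PP2) and 507 ± 76.7 (MSC). The kinase gene Aurka averaged 163 ± 93.9 (PSC), 133 ± 115 (PP1), 117 ± 68.02 (PP2) and 186 ± 35.4 (MSC), and Bub1 51.9 ± 33.3 (PSC), 82.4 ± 46.2 (PP1), 54.3 ± 25.3 (PP2) and 107 ± 9.74 (MSC). Kif11, the spindle pole motor, averaged 74.5 ± 33.02 (PSC), 169 ± 91.5 (PP1), 99.4 ± 63.2 (PP2) and 142 ± 18.02 (MSC). The kinetochore gene Cenpf averaged 17.5 ± 14.9 (PSC), 10.8 ± 13.2 (PP1), 16.9 ± 27.3 (PP2) and 68.6 ± 27.7 (MSC). Of these 9 genes, Aurka and Cenpf were lower by mean in both progenitor groups than in PSC, and Ccnb1 and Tpx2 in PP2.

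PP1 and PP2 were compared to ask whether the 2 progenitor populations differed in these genes. None of the 45 was called by limma in PP1 against PP2, where 0.834% of all tested genes were called (0.478% higher and 0.355% lower in PP1). At an unadjusted limma p under 0.05 there were 9 of the 45 genes. The share of all tested genes under that unadjusted threshold is not given here, and 0.834% is not its counterpart. DESeq2 called 2, Cenpe higher and Ccnd3 lower in PP1, and edgeR called 0 with either set of factors. The smallest adjusted p was that of Ccnd3, 0.0992, with PP1 1.3-fold lower and without overlap. The median log2 difference was 0.07 over the 45 genes, 0.39 over the mitosis genes and -0.19 over the S phase genes, beside 0.02 over all tested genes.

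Against MSC, PP1 had 5 genes higher and 1 lower, or 11.1% and 2.22% of the 45, beside 8.88% and 12.6% of all tested genes (21.4% in either direction). These were Tyms, Ccnb2, Cdk4, Cdkn1c and E2f1, which were higher, and Cdkn1a. PP2 had 6 higher and 4 lower, or 13.3% and 8.89%, beside 9.28% and 14.7% of all tested genes (24.0% in either direction). The higher genes were Pcna, Rrm1, Ccnd3, Cdk4, Cdkn1c and E2f1, and the lower ones Cenpe, Cdk6, Cdkn1a and Rb1. Of the 45 genes, 24 differed among the 4 groups in the overall F test (53.3%), beside 44.8% of all tested genes.

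Per kb of exon, levels within the module ranged widely. Cdk4 had a mean level of 1773 normalized counts per kb (PSC), 2530.4 (PP1), 2457 (PP2) and 1803 (MSC), and Cdk6 19.5 (PSC), 5.94 (PP1), 5.64 (PP2) and 13.97 (MSC). Cdk4 was thus the more abundant of the 2 cyclin D kinase transcripts in every group. Among the cyclin D genes Ccnd3 was highest per kb in every group, at 646 (PSC), 843 (PP1), 1098 (PP2) and 745 (MSC).

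Further genes of the same processes, taken from lists, are given with the share over all tested genes. Of 50 other S phase genes, PSC had 2 higher and 11 lower against PP1, 1 higher and 11 lower against PP2, and 1 higher and 3 lower against MSC. The lower genes were 22% of the list against PP1 and PP2 and 6% against MSC, beside 15.1%, 15.2% and 14.2% of all tested genes. Dnmt1, the maintenance DNA methyltransferase, averaged 74.9 ± 34.3 (PSC), 298 ± 89.1 (PP1), 306 ± 136 (PP2) and 460.0 ± 52.2 (MSC) (SD, n = 4 each) and fell in PSC against PP1 (adjusted p 0.000659), PP2 (adjusted p 0.000752) and MSC (adjusted p 8.51e-05). Usp1, a deubiquitinase of DNA repair, averaged 482 ± 83.9 (PSC), 856 ± 93.4 (PP1), 740.4 ± 107 (PP2) and 681 ± 68.2 (MSC), and also fell against all 3 groups. Dtl averaged 139 ± 47.7 (PSC), 361 ± 148 (PP1), 436 ± 63.2 (PP2) and 226 ± 33.5 (MSC), and Prim1, a primase subunit, 225 ± 102 (PSC), 474 ± 199 (PP1), 641 ± 259 (PP2) and 234 ± 17.5 (MSC); both fell in PSC against PP1 and PP2. Mcm10, a replication factor, ran the opposite way, at 148 ± 59.3 (PSC), 2.96 ± 5.92 (PP1), 24.5 ± 11.2 (PP2) and 70.4 ± 18.3 (MSC), and rose in PSC against PP1 (adjusted p 1.63e-05) and PP2 (adjusted p 0.0274). Dut, for dUTPase, averaged 2021 ± 268 (PSC), 2528 ± 307 (PP1), 2274 ± 276 (PP2) and 1671 ± 189 (MSC), and was higher in PP1 and PP2 than in MSC (adjusted p 0.00255 and 0.0172).

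Of 63 other mitosis genes, PSC had 0 higher and 11 lower against PP1, 1 higher and 5 lower against PP2, and 1 higher and 11 lower against MSC. The lower genes were 17.5%, 7.94% and 17.5% of the list, beside 15.1%, 15.2% and 14.2% of all tested genes, so these shares were near or under the background. The higher genes were 0%, 1.59% and 1.59%, beside 16.1%, 17.6% and 12.1% of all tested genes. The median log2 difference of the list was -0.79 for PSC minus PP1, -0.31 for PSC minus PP2 and -0.84 for PSC minus MSC. Over all tested genes these medians were 0.04, 0.08 and -0.18. Cdca3 averaged 829 ± 119 (PSC), 1925 ± 383 (PP1), 1297 ± 306 (PP2) and 1321 ± 194 (MSC), and Ncapd2, a condensin subunit, 356 ± 122 (PSC), 614 ± 40.9 (PP1), 613 ± 138 (PP2) and 743 ± 61.99 (MSC). Both fell in PSC against all 3 groups. Foxm1, a transcription factor of mitosis genes, averaged 109 ± 49.2 (PSC), 338 ± 90.8 (PP1), 172 ± 74.1 (PP2) and 454 ± 50.6 (MSC), and fell in PSC against PP1 (adjusted p 0.00438) and MSC (adjusted p 0.00102) and in PP2 against MSC (adjusted p 0.0129). Knstrn, a kinetochore and spindle protein, averaged 179 ± 28.7 (PSC), 536 ± 162 (PP1), 245 ± 46.9 (PP2) and 313 ± 37.5 (MSC), and Iqgap3 61.1 ± 33.8 (PSC), 255 ± 116 (PP1), 108 ± 71.7 (PP2) and 347 ± 51.3 (MSC); both fell in PSC against PP1 and MSC. Cenpa, the centromeric histone gene, averaged 770.1 ± 168 (PSC), 1726 ± 313 (PP1), 943 ± 268 (PP2) and 1209.7 ± 319 (MSC) and fell in PSC against PP1 (adjusted p 0.000878).

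Of 33 other regulators of G1, PSC had 2 higher and 2 lower against PP1, 1 higher and 4 lower against PP2, and 0 higher and 2 lower against MSC. Higher genes (6.06%, 3.03% and 0%) and lower genes (6.06%, 12.1% and 6.06%) were under the shares over all tested genes in each comparison. Myc, a transcription factor that promotes cell cycle entry, averaged 1384 ± 403 (PSC), 517 ± 149 (PP1), 375 ± 126 (PP2) and 1510.1 ± 398 (MSC), and rose in PSC against PP1 (adjusted p 0.000467) and PP2 (adjusted p 2.03e-05), with an adjusted p of 0.765 against MSC. Tfdp2, an E2F partner, averaged 433 ± 68.6 (PSC), 845 ± 203 (PP1), 851 ± 139 (PP2) and 821 ± 80.2 (MSC), and fell in PSC against all 3 groups. Rbl2, for the retinoblastoma relative p130, averaged 364 ± 177 (PSC), 437 ± 180.4 (PP1), 964 ± 331 (PP2) and 558 ± 100.05 (MSC), and was lower in PSC than in PP2 (adjusted p 0.00410). Cdk7, of the CDK-activating kinase, averaged 1328 ± 243 (PSC), 1419 ± 242 (PP1), 1636 ± 165 (PP2) and 1059.9 ± 149 (MSC), and Fbxw7, of the ubiquitin ligase for cyclin E, 48.9 ± 37.5 (PSC), 82.6 ± 44.5 (PP1), 23.8 ± 35.1 (PP2) and 103 ± 8.02 (MSC); against MSC, PP2 was higher for Cdk7 and lower for Fbxw7. Mycn averaged 0.530 ± 0.614 (PSC), 33.5 ± 31.4 (PP1), 33.8 ± 39.05 (PP2) and 67.2 ± 9.19 (MSC) and fell in PSC against MSC (adjusted p 0.00641).

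Libraries of 1 group did not share 1 rank. PSC replicate 1 was the highest of its group for 12 of 19 mitosis genes but for 4 of 15 S phase genes, where it was lowest for 7. PP1 replicate 3 was lowest of its group for 13 mitosis and 8 S phase genes. In PP2, replicates 1 and 3 were lowest for 10 and 9 mitosis genes, and replicate 4 highest for 11. With PP2 replicates 1 and 3 left out together, PSC had 28 of the 45 genes called against PP1, 19 against PP2 and 15 against MSC. The shares of all tested genes in that fit are not given here. A change in these counts is therefore not shown to be particular to the 45 genes.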

How the data were processed

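RNA from 16 libraries, 4 per sorted population, was extracted with RNeasy Plus Micro, and TruSeq RNA libraries were run on a HiSeq4000, per the labels. Tools listed in the submitters' processing notes are TopHat2 2.0.11, HTSeq 0.6.1, cutadapt, bcl2fastq 2.17 and DESeq2 1.6.3, with the mm10 build; whether counting used strand is not stated there. The table that the authors deposited holds signal values for 22559 genes. Within a library all values (100%) were whole multiples of 1 step, to 1e-06, so the values are read counts over a size factor, called normalized counts here. No column was left out.

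Genes reaching 10 in 4 libraries (13797) were fitted as log2(normalized count + 1) by limma 3.58.1 (R 4.3.3, trend on), with group as sole term over the 16 libraries together. Benjamini-Hochberg adjustment was made per comparison, and an adjusted p under 0.05 counted as a call. Folds are differences on this scale, first-named group minus second, and for low genes depend on the pseudocount, exceeding the ratio of means in some genes with a library at 0. The fit was tested on simulated data, and a gene not called is not thereby shown to be unchanged. Depth was 22.3 to 48.4 M recovered reads per library, and replicate spread set the precision of means. Levels per kb used GENCODE M21 exons (GRCm38).

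The members and gene lists were chosen with earlier results of these data known. Named with all library values were the 11 regulators, Mki67, Top2a, Pcna, Mcm2 and, of the S phase and of the mitosis genes, the 4 highest per kb and the 4 with the smallest F test p; of other lists, up to 6 with the smallest F test p. Alternatives were pseudocounts of 0.5 and 8, no filter, at least 50 in 4 libraries, DESeq2 1.42.0 and edgeR 4.0.16 on recovered reads, TMM rescaling, the 8 libraries compared, a replicate block, each library left out, and PP2 replicates 1 and 3 left out together.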

Additional observations from a re-analysis of the deposited data

Results flagged for a closer look

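Within groups of 4 libraries, 108 sets of values were examined for a library far from the other 3, and 3 were found, where chance gives about 1 in 20. Top2a in PSC replicate 1 was 157 normalized counts, against 74.3 to 84.5 in the other PSC libraries, still below every PP1 and MSC library. Rrm1 in PP1 replicate 3 was 1017, against 1476 to 1560 in the other PP1 libraries. Cdk4 in MSC replicate 3 was 4979, against 6109 to 6188 in the other MSC libraries.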

How the results depend on the processing

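Of 73 calls of single genes, 50 held under all 27 alternatives, 23 were lost under at least 1, and 0 reversed. With only the 8 libraries compared in the fit, PSC against MSC gave 23 calls in place of 11, and all 11 were among them. Of the 23, 3 were higher and 20 lower (6 S phase and 12 mitosis genes). The cause was not tested, and shares over all tested genes are not given for the alternatives. On recovered reads, edgeR with TMM factors called 10 of the 45 genes for PSC against MSC, 24 for PSC against PP1, 24 for PSC against PP2, 6 for PP1 against MSC and 12 for PP2 against MSC. PP1 against PP2 gave 2 calls with DESeq2 and 2 with the replicate block, in place of 0. Leaving out each library in turn gave 9 to 14 calls for PSC against MSC, 18 to 25 for PSC against PP1, 20 to 22 for PSC against PP2, 0 to 1 for PP1 against PP2 (1 without PP2 replicate 2), 5 to 9 for PP1 against MSC, 8 to 13 for PP2 against MSC, and 21 to 28 for the test over 4 groups. Deviations of same-numbered libraries were weakly correlated, over 0.1 in 2 of 24 pairs (range -0.02 to 0.15). Pairs with different numbers ranged lower, from -0.09 to 0.05. Deviations were taken from group means, so positive values in same-numbered pairs by themselves push the other pairs lower. Whether equal numbers mark a shared animal or batch was not tested. The replicate block gave 14 calls for PSC against MSC in place of 11, and 26 for PSC against PP1 in place of 24. Of the 45 genes, 7 had a library at 0, and low counts limit the precision of their differences; p-values cover these 16 libraries only.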
